A study of Homo sapiens with 12 samples.

Results

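Small RNA was sequenced from HEK293T cells in 6 libraries, and these fall into 2 sets of 3 by the number that opens each sample title. Set 1 holds titles 1, 2 and 3, which are the first replicate of each group, and set 2 holds titles 4, 5 and 6, which are the second. Each set has 1 library of each plasmid, so the sets can be compared with the plasmid held fixed. The comparison uses these 6 of the 12 samples of the series and the 1153 miRNAs of the deposited count table, of which 417 had enough reads to be tested and 736 did not. HEK293T is an established human embryonic kidney line that carries the SV40 large T antigen. The cells of every group received 2 µg of a plasmid encoding a GFP reporter, and RNA was extracted at 48 h. The GFP group is the control transfection. In the BCL2L11 and TRIM9 groups the reporter's 3′ UTR carried a trigger sequence, taken from the gene of that name, for target-directed miRNA degradation. In such decay a target that pairs along much of a miRNA causes that miRNA to be destroyed. The triggers were directed at miR-221 and miR-222 (BCL2L11) and at miR-218 (TRIM9). Transfection was by polyethylenimine or by lipofectamine, and the labels do not say which sample received which. RNA of 18 to 40 nt was selected when the libraries were built. The labels call the 2 libraries of a group biological replicates and name neither a batch, a date nor a pairing, so "set" means only the title number. All groups are 1 cell line, and in bulk RNA fewer cells of a kind and less RNA per cell cannot be told apart.

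A miRNA is cut from a hairpin transcript, first by Drosha in the nucleus and then by Dicer in the cytoplasm. The resulting duplex has a 5p and a 3p strand, and an Argonaute protein keeps mainly one of them. The loaded strand pairs with target mRNAs through its seed, bases 2 to 8, and lowers their stability and translation. The level of a mature strand therefore depends on transcription of its host, on processing, on strand choice and on decay, and neighbouring hairpins on 1 transcript can end at different levels.

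The strands on which the comparison turns are printed here 5′ to 3′ with the seed in capitals. They are the RefSeq mature sequences of GRCh38.p14, which the table of names matched for 374 of the 417 tested miRNAs. The first group was lower in set 2.
miR-16-5p: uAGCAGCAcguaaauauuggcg
miR-152-3p: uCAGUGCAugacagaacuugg
miR-454-3p: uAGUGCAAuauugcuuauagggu
miR-130b-3p: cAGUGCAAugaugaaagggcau
miR-532-3p: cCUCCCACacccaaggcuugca
miR-34a-5p: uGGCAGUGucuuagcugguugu
miR-26b-5p: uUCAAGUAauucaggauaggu
The next group was higher in set 2, and holds the opposite strands of 2 hairpins of the first group, miR-16-2-3p and miR-130b-5p.
miR-16-2-3p: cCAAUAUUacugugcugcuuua
miR-130b-5p: aCUCUUUCccuguugcacuac
miR-450b-5p: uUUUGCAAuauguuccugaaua
miR-340-3p: uCCGUCUCaguuacuuuauagc
miR-361-3p: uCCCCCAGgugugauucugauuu
miR-143-3p: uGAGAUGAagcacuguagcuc
miR-100-5p: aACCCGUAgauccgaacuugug
miR-454-3p and miR-130b-3p carry 1 seed, AGUGCAA, and come from different chromosomes. The miR-454-3p strand lies on the minus strand of chr17:59137787-59137809 and miR-130b-3p on the plus strand of chr22:21653354-21653375. The opposite strand, miR-130b-5p, lies in the same hairpin at chr22:21653316-21653336. The sequence of miR-16-5p occurs at 2 loci, chr3:160404754-160404775 on the plus strand (MIR16-2) and chr13:50049027-50049048 on the minus strand (MIR16-1). The strand miR-16-2-3p belongs to MIR16-2 alone, at chr3:160404797-160404818.

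Library totals ran from 5018875 to 6091151 miRNA reads, and 745 to 840 miRNAs had at least 1 read. No pair of the 15 library pairs held identical counts. miR-148a-3p alone took 57.7%, 60.1% and 57.7% of reads in set 1 (GFP, BCL2L11 and TRIM9, an order kept for every list of library values) and 61.4%, 63.1% and 67.2% in set 2. Levels are CPM, the counts relative to library size, scaled by TMM factors, a correction for such dominant species. The factors were 1.04, 1.06 and 1.19 in set 1 and 1.06, 0.92 and 0.78 in set 2, so the TRIM9 library of set 2 stood apart. Poly-A libraries of the same plasmids were read for transcripts taken as markers of HEK293T. They held IRS4 at 8.61 to 80.3 FPKM, LIN28B at 10.2 to 32.2 FPKM and VIM at 368 to 500.1 FPKM. PAX2, a kidney marker, was low at 0.0886 to 0.613 FPKM, and the liver gene ALB was listed at 0.280 to 2.06 FPKM. PTPRC and HBB, which define white and red blood cells, were listed at 0 in those poly-A libraries.

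**Figure D1:**
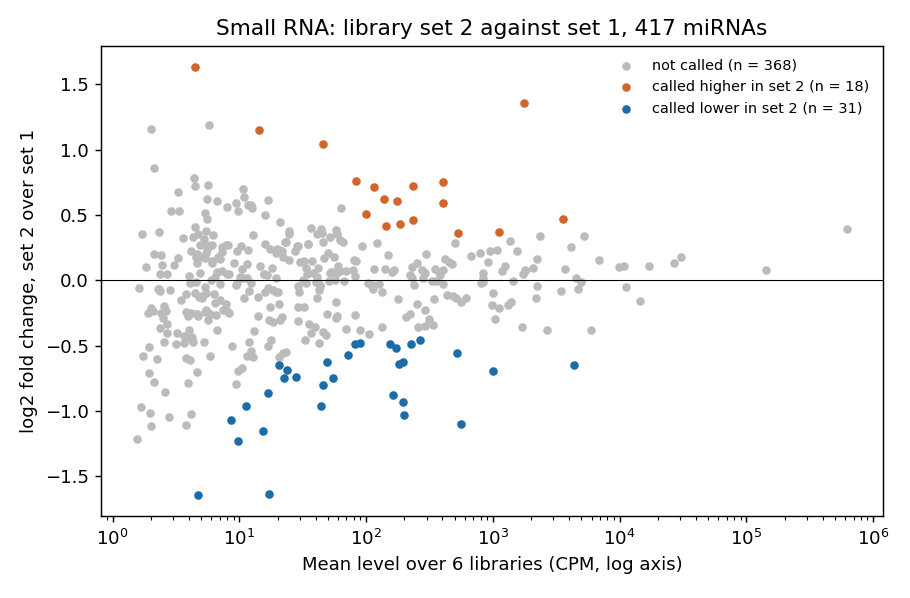
Each point is 1 of 417 tested miRNAs, with the mean level over 6 libraries in CPM on a log axis and the log2 fold change of set 2 over set 1 on the vertical axis. The 18 miRNAs called higher and the 31 called lower lie on both sides of the median of all points at -0.004, and none of them is among the 10 miRNAs of highest level.

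Between the sets 49 of 417 miRNAs differed at an edgeR adjusted p under 0.05 (11.8%), 18 of them higher in set 2 (4.32%) and 31 lower (7.43%). The called log2 fold changes ran from 0.36 to 1.64 in size, with a median of 0.69, and the median over all tested miRNAs was -0.004. In 113 miRNAs (27.1%) the 3 values of 1 set lay entirely outside those of the other, with set 2 above in 44 (10.6%) and below in 69 (16.5%). All 3 plasmids gave 1 sign in 187 of 417 tested miRNAs, and in 48 of the 49 called, the exception being miR-486-5p. The 5 called miRNAs whose sets overlapped were miR-100-5p, miR-486-5p, miR-4717-3p, miR-1306-5p and miR-1299. Scaling by total counts in place of TMM moved the median of all miRNAs by -0.26 and gave 3 higher and 40 lower calls. The 3 that stayed higher were miR-451a, miR-143-3p and miR-363-3p. Over 17 alternatives the sign of all 49 held wherever the miRNA was tested, but the calls did not. Their number was 13 without GFP replicate 1, but 51 without GFP replicate 2 and 50 without both GFP libraries. All 3 of these fits draw the set difference from the BCL2L11 and TRIM9 pairs. The number was 17 without BCL2L11 replicate 1 or without BCL2L11 replicate 2. 6 strands, miR-16-5p, miR-152-3p, miR-532-3p, miR-34a-5p, miR-454-3p and miR-26b-5p, were called under every alternative.

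Set differences within a plasmid were alike in part. Across all 417 miRNAs, which share libraries and are not independent, the differences correlated at r = 0.40 between GFP and BCL2L11, 0.13 between GFP and TRIM9 and 0.28 between BCL2L11 and TRIM9. Over the 227 miRNAs with a mean count of at least 100 these values were 0.59, 0.46 and 0.70. At the threshold, the last miRNA inside was miR-1299 (log2 fold change 0.41, adjusted p = 0.0431) and the first outside was miR-185-5p (-0.34, adjusted p = 0.0511).

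**Figure D2:**
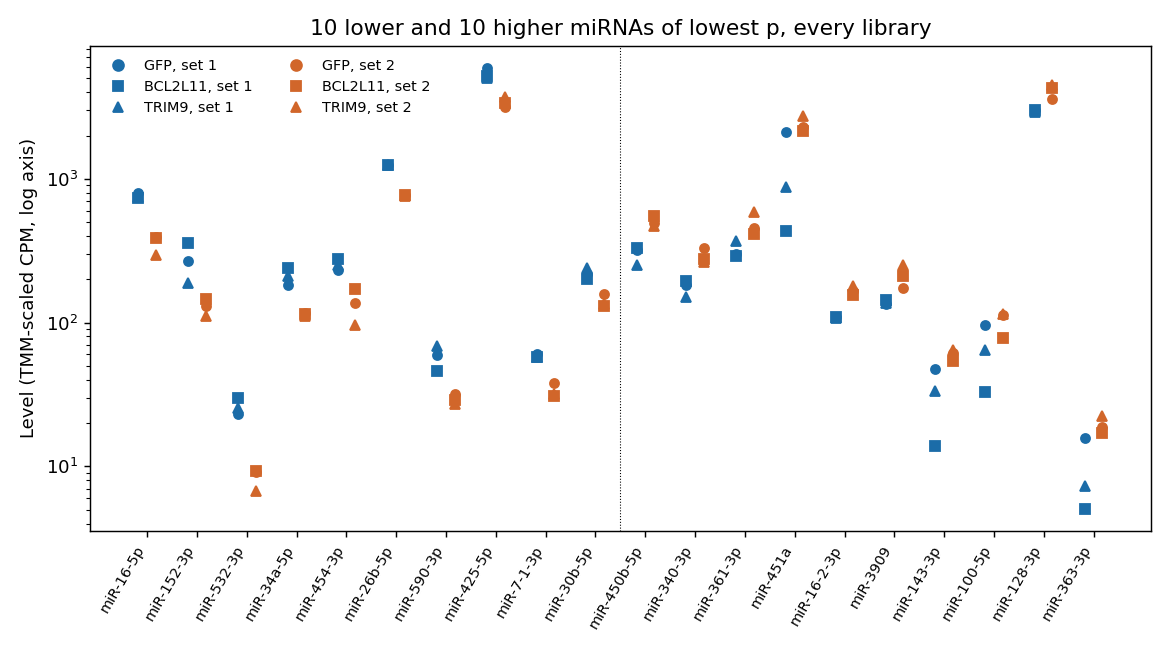
Levels in TMM-scaled CPM on a log axis for the 10 lower (left of the dotted line) and 10 higher miRNAs of lowest p, with set 1 in blue, set 2 in orange and 1 marker shape per plasmid. Left of the line all orange points of a miRNA lie below its blue points, while for miR-100-5p on the right a blue circle (GFP, 96.7 CPM) lies above an orange square (BCL2L11, 78.6 CPM).

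Among the strands lower in set 2, miR-16-5p had the lowest p. miR-16-5p belongs to the miR-15/16 family, which represses BCL2 and several G1 cyclins. Its level was 797, 738 and 749.5 CPM in set 1 and 393, 389 and 293 CPM in set 2. Every set 2 library was below every set 1 library, with a log2 fold change of -1.10, SE 0.118, edgeR adjusted p = 2.39e-05. miR-152-3p shares its seed with miR-148a-3p, the most abundant strand in these cells, and the family is known for repressing DNMT1. It stood at 269.6, 358 and 187 CPM in set 1 and 131, 147 and 112 CPM in set 2. The sets did not overlap, although set 1 itself ranged widely, and the log2 fold change was -1.03, SE 0.127, edgeR adjusted p = 8.21e-05. A larger fold was that of miR-532-3p, which comes from a run of hairpins in the CLCN5 gene on the X chromosome. It measured 23.2, 29.9 and 25.4 CPM in set 1 and 9.12, 9.28 and 6.70 CPM in set 2 (log2 fold change -1.64, SE 0.219, edgeR adjusted p = 1.46e-04). Its values in set 2 were all under 10 CPM and those in set 1 all above 20 CPM.

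miR-34a-5p is transcribed under p53 control. The level was 181, 239.9 and 211 CPM in set 1 and 117, 115 and 110.3 CPM in set 2, so the 3 set 2 libraries were close together and all below set 1 (log2 fold change -0.88, SE 0.127, edgeR adjusted p = 3.02e-04). miR-454-3p and miR-130b-3p, the pair with the shared AGUGCAA seed, were both lower. For miR-454-3p the libraries gave 231, 278 and 253 CPM in set 1 and 137, 172 and 96.9 CPM in set 2 (log2 fold change -0.94, SE 0.139, edgeR adjusted p = 3.06e-04). For miR-130b-3p they gave 21.5, 21.6 and 20.2 CPM in set 1 and 8.59, 12.5 and 7.66 CPM in set 2 (log2 fold change -1.15, SE 0.229, edgeR adjusted p = 0.00258). The TRIM9 library of set 2 was the lowest of all 6 for both strands, and miR-130b-3p lost its call without GFP replicate 1 (adjusted p = 0.0770, and from 1.41e-04 to 0.0770 over all alternatives). That strand was called under the other 16 of 17 alternatives, also without GFP replicate 2 and without both GFP libraries. miR-26b-5p, whose hairpin lies in an intron of CTDSP1, was the most even of these strands. It read 1246, 1238 and 1249 CPM in set 1 and 771, 777 and 764 CPM in set 2, with nearly 1 value per set (log2 fold change -0.69, SE 0.107, edgeR adjusted p = 3.99e-04).

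A more abundant strand, miR-425-5p, is made with miR-191 from an intron of DALRD3. It measured 5902, 5169.8 and 5026 CPM in set 1 and 3178, 3378 and 3701 CPM in set 2, and all of set 2 lay below set 1 (log2 fold change -0.65, SE 0.118, edgeR adjusted p = 0.00178). miR-320a-3p, which is made without Drosha from a short capped transcript, read 666, 607 and 602 CPM in set 1 and 424, 409.6 and 438 CPM in set 2 (log2 fold change -0.56, SE 0.110, edgeR adjusted p = 0.00246). miR-30b-5p of the miR-30 family stood at 219, 199.9 and 242 CPM in set 1 and 158, 131 and 134 CPM in set 2 (log2 fold change -0.64, SE 0.122, edgeR adjusted p = 0.00217). The sets did not overlap for any of these 3 strands. let-7c-5p, of the let-7 family that represses RAS and HMGA2, gave 249.7, 237 and 225 CPM in set 1 and 138, 173.2 and 151 CPM in set 2 (log2 fold change -0.63, SE 0.122, edgeR adjusted p = 0.00236). miR-590-3p gave 59.3, 45.8 and 69.1 CPM in set 1 and 31.8, 29.1 and 27.0 CPM in set 2 (log2 fold change -0.97, SE 0.169, edgeR adjusted p = 0.00127). miR-7-1-3p is the passenger strand of a hairpin whose 5p strand is the second most abundant species here. It gave 60.4, 57.7 and 57.2 CPM in set 1 and 37.7, 31.1 and 31.8 CPM in set 2 (log2 fold change -0.80, SE 0.152, edgeR adjusted p = 0.00217), whereas miR-7-5p did not pass the test. Without GFP replicate 1 the adjusted p was 0.0798 for miR-425-5p, 0.0983 for miR-320a-3p, 0.109 for let-7c-5p and 0.0530 for both miR-590-3p and miR-30b-5p. Without BCL2L11 replicate 1 it was 0.06995 for miR-425-5p, 0.1004 for miR-320a-3p and 0.0591 for miR-7-1-3p. The highest adjusted p over all alternatives was 0.109, for let-7c-5p. Of 17 alternatives, let-7c-5p, miR-590-3p and miR-30b-5p were called under 16, also without GFP replicate 2 and without both GFP libraries. miR-7-1-3p was called under 14, and miR-425-5p and miR-320a-3p under 13.

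The remaining lower strands were called with adjusted p from 0.00452 to 0.0361. They include miR-574-5p (-0.74 on the log2 scale), miR-193b-3p (-0.57), let-7e-5p (-0.46), miR-31-5p (-0.62), miR-29b-3p (-0.74) and miR-28-3p (-0.52). miR-877-5p, a mirtron whose hairpin ends are set by splicing rather than by Drosha, was lower, with a log2 fold change of -0.69. Its level was 25.8, 33.4 and 28.6 CPM in set 1 and 16.6, 21.4 and 16.5 CPM in set 2, without overlap, and the call was lost without BCL2L11 replicate 1 (adjusted p = 0.185, and from 0.00921 to 0.1996 over all alternatives). Some called strands with few reads depended on which pairs were kept. miR-4717-3p had 57, 41 and 22 reads in set 1 and 8, 21 and 7 reads in set 2, and its log2 fold change of -1.64 was -1.04, adjusted p = 0.364 without GFP replicate 1. miR-3131 had 86, 82 and 58 reads in set 1 and 21, 27 and 38 reads in set 2. Its TRIM9 pair differed by -0.01, and the log2 fold change of -1.23 was -1.86, adjusted p = 0.00148 without TRIM9 replicate 1. It was -0.83, adjusted p = 0.375 without GFP replicate 1 and -1.01, adjusted p = 0.271 without BCL2L11 replicate 1, and miR-3131 was called under 8 of 16 alternatives.

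Higher in set 2 with the lowest p was miR-450b-5p, from the X-linked cluster that also holds miR-424 and miR-503. Its level was 322, 331 and 253 CPM in set 1 and 496, 554 and 468 CPM in set 2, and every set 2 library exceeded every set 1 library (log2 fold change 0.75, SE 0.112, edgeR adjusted p = 3.06e-04). miR-340-3p, the less abundant strand of a hairpin in an RNF130 intron, read 183, 194 and 151 CPM in set 1 and 328, 276 and 264 CPM in set 2 (log2 fold change 0.72, SE 0.118, edgeR adjusted p = 6.76e-04). miR-361-3p, from an intron of CHM, read 301, 290.4 and 369 CPM in set 1 and 454, 412 and 592 CPM in set 2 (log2 fold change 0.59, SE 0.110, edgeR adjusted p = 0.00202). Under total-count scaling these 3 kept their sign but lost the call, at 0.49, adjusted p = 0.156 for miR-450b-5p, 0.46, adjusted p = 0.222 for miR-340-3p and 0.33, adjusted p = 0.430 for miR-361-3p. Over all alternatives the adjusted p of the 3 ran from 3.04e-08 to 0.156, from 1.34e-06 to 0.222 and from 7.70e-06 to 0.430. Without GFP replicate 1 the calls of miR-340-3p and miR-361-3p were lost as well, both at an adjusted p of 0.0770. Both strands were called under the other 15 of 17 alternatives, also without GFP replicate 2.

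The strand miR-16-2-3p stood at 109, 109.9 and 108 CPM in set 1 and 167, 157 and 179 CPM in set 2, with set 1 within a few CPM and set 2 clearly above it (log2 fold change 0.62, SE 0.123, edgeR adjusted p = 0.00258). miR-3909 read 135, 143 and 137 CPM in set 1 and 175, 211 and 253 CPM in set 2 (log2 fold change 0.60, SE 0.128, edgeR adjusted p = 0.00433). miR-128-3p, a strand known for its abundance in neurons, was the most abundant of those called higher. It measured 3011, 3013 and 2900.1 CPM in set 1 and 3603, 4294 and 4525 CPM in set 2 (log2 fold change 0.47, SE 0.115, edgeR adjusted p = 0.0137), with the 3 pairs at 0.26 in GFP, 0.51 in BCL2L11 and 0.64 in TRIM9. let-7i-5p was higher (1070.4, 968 and 886 CPM in set 1 and 1233, 1268 and 1264 CPM in set 2, log2 fold change 0.37, SE 0.111, edgeR adjusted p = 0.0361), while its relatives let-7c-5p and let-7e-5p were lower. Without BCL2L11 replicate 1 the adjusted p was 0.330 for miR-128-3p, 0.438 for let-7i-5p and 0.0596 for miR-3909, and without GFP replicate 1 it was 0.0770 for miR-16-2-3p. Over all alternatives the highest adjusted p of these 4 was 0.576, 0.810, 0.454 and 0.432, and miR-16-2-3p was called under 15 of 17. Smaller calls in this direction were miR-641 (0.46), miR-1278 (0.50), miR-132-5p (0.43), miR-130b-5p (0.36) and miR-1299 (0.41).

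**Figure D3:**
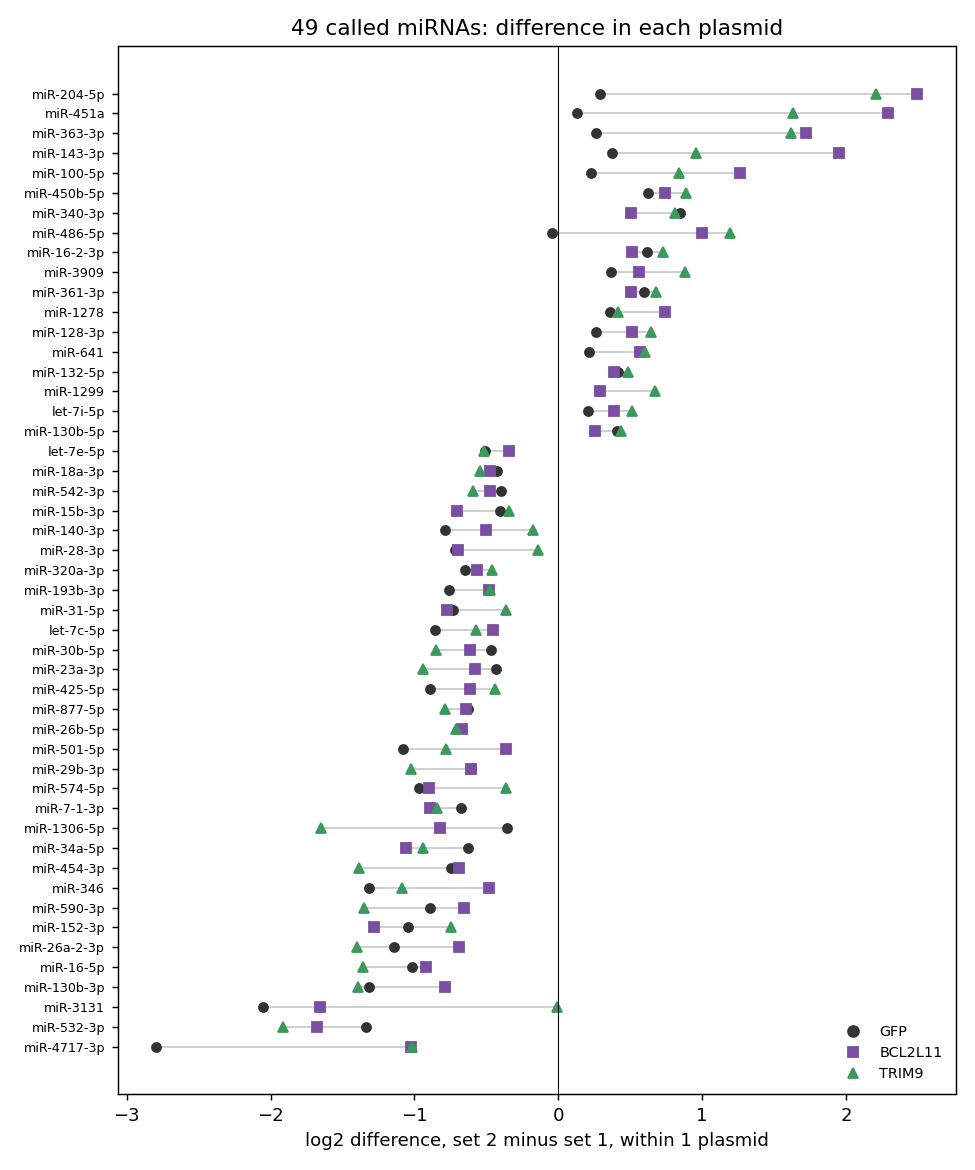
Log2 difference of set 2 minus set 1 within each plasmid for the 49 called miRNAs, ordered by fitted fold change, with 1 marker shape and colour per plasmid and a grey line joining the lowest and highest pair. Only miR-486-5p has markers on both sides of 0 (GFP at -0.05), and the upper rows miR-451a, miR-363-3p, miR-204-5p and miR-143-3p have a GFP marker far to the left of the other two.

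Another pattern was shared by 6 of the higher strands, singled out after their values were seen. miR-451a, miR-486-5p, miR-143-3p, miR-100-5p, miR-363-3p and miR-204-5p were each lowest in BCL2L11 replicate 1, next lowest in TRIM9 replicate 1, and differed between the 2 GFP libraries by 0.37 or less on the log2 scale. miR-451a is an erythroid miRNA that is cut by AGO2 without Dicer. It read 2105, 437 and 878 CPM in set 1 and 2304, 2134 and 2724 CPM in set 2, so 1 library of set 1 was already near the level of set 2. The log2 differences within a plasmid were 0.13 in GFP, 2.29 in BCL2L11 and 1.63 in TRIM9, and the fit gave 1.36, SE 0.259, edgeR adjusted p = 0.00217. miR-486-5p, abundant in red cells and muscle, read 132, 66.1 and 70.2 CPM in set 1 and 128, 132 and 161 CPM in set 2 (log2 fold change 0.71, SE 0.186, edgeR adjusted p = 0.0174). In the GFP pair it was slightly lower in set 2.

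miR-143-3p, a strand typical of smooth muscle and other mesenchymal cells, read 47.5, 13.9 and 33.2 CPM in set 1 and 61.5, 53.9 and 64.4 CPM in set 2 (log2 fold change 1.04, SE 0.220, edgeR adjusted p = 0.00433). miR-100-5p, of the miR-10 and miR-99/100 family, read 96.7, 32.7 and 64.5 CPM in set 1 and 113, 78.6 and 115 CPM in set 2 (log2 fold change 0.76, SE 0.170, edgeR adjusted p = 0.00715). For both, GFP replicate 1 was close to set 2 and BCL2L11 replicate 1 was far below it. miR-363-3p belongs to a paralogue of the miR-17-92 cluster on the X chromosome, and read 15.7, 5.07 and 7.27 CPM in set 1 and 18.8, 17.0 and 22.5 CPM in set 2 (log2 fold change 1.15, SE 0.285, edgeR adjusted p = 0.0140). miR-204-5p, from a TRPM3 intron and abundant in retinal pigment epithelium, had only 19, 6 and 12 reads in set 1 and 24, 38 and 38 reads in set 2 (log2 fold change 1.63, SE 0.487, edgeR adjusted p = 0.0361). These counts are low, and the 6 reads of miR-204-5p in BCL2L11 replicate 1 weigh in its fold.

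Without BCL2L11 replicate 1 the log2 fold change was 0.88, adjusted p = 0.00532 for miR-451a, which kept its call. It was 0.57, adjusted p = 0.147 for miR-486-5p and 0.66, adjusted p = 0.113 for miR-143-3p. For miR-100-5p it was 0.53, adjusted p = 0.231, for miR-363-3p 0.91, adjusted p = 0.1004 and for miR-204-5p 1.26, adjusted p = 0.252, so 5 of the 6 lost the call. The 6 were picked for their low level in that library, so smaller values without it follow from the choice, and of all 49 calls 17 were kept without it. Over all alternatives the adjusted p of miR-451a ran from 6.07e-26 to 0.166. For miR-486-5p it ran from 5.83e-07 to 0.251, for miR-143-3p from 2.70e-09 to 0.127, for miR-100-5p from 3.28e-06 to 0.249, for miR-363-3p from 7.63e-06 to 0.144 and for miR-204-5p from 0.00227 to 0.278. Leaving out GFP replicate 1 moved miR-486-5p to 1.10, adjusted p = 0.0204, and leaving out TRIM9 replicate 1 moved it to 0.46, adjusted p = 0.147.

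**Figure D4:**
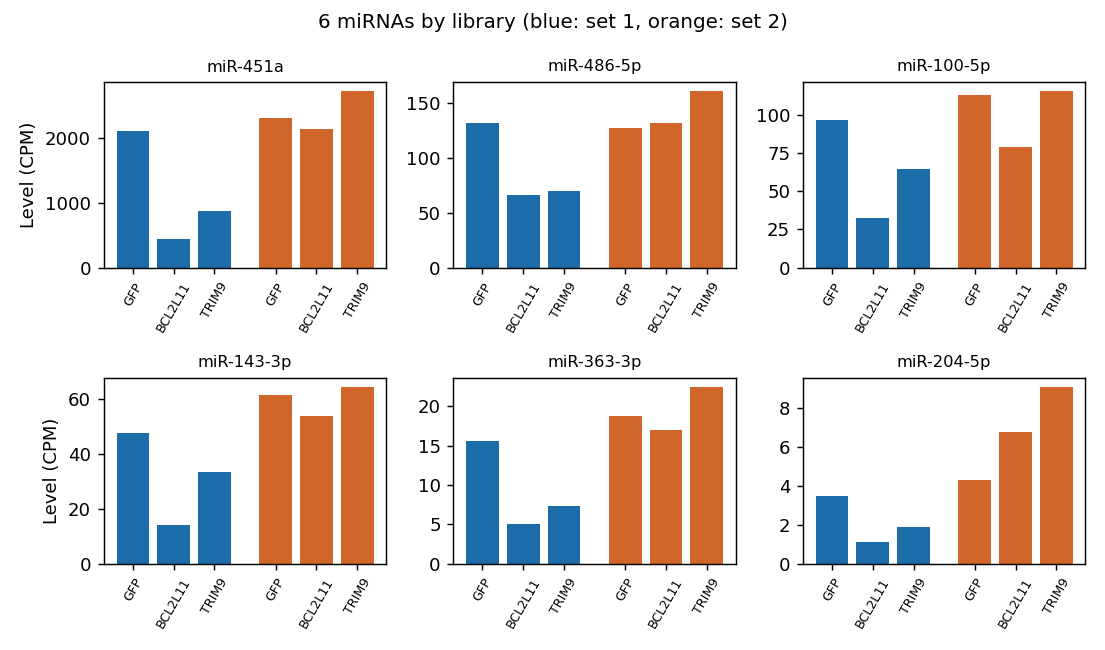
Levels in CPM of 6 miRNAs in each library, set 1 in blue and set 2 in orange, with plasmids in the order GFP, BCL2L11, TRIM9 and bars from 0. In every panel the BCL2L11 bar of set 1 is the shortest (437 CPM for miR-451a) and the GFP bar of set 1 is near the GFP bar of set 2 (2105 and 2304 CPM).

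Marker miRNAs of other cell types were read as lists. Both tested blood cell markers, miR-451a and miR-486-5p, were called higher, beside 4.32% of all tested miRNAs. The summed level of the list was 2237 CPM in GFP, 503 CPM in BCL2L11 and 949 CPM in TRIM9 of set 1, and 2431, 2266 and 2885 CPM in set 2. The other 5 markers found in the table were too low to be tested. Of these, miR-142-3p had 1 to 3 reads, miR-144-5p 0 to 7 and miR-223-3p 0 to 4 in each library, although all mark blood cells. miR-150-5p, of lymphocytes, had 158 reads in TRIM9 replicate 1 and 0 to 2 in the other 5 libraries. Of the 3 tested mesenchymal markers 1 was called, miR-143-3p, and their summed level was 74.0, 39.1 and 65.1 CPM in set 1 against 79.8, 75.0 and 86.9 CPM in set 2. The other mesenchymal strands were miR-199a-5p (0.86, adjusted p = 0.364) and miR-199b-5p, which pointed the other way with sets that did not overlap (-0.55, adjusted p = 0.0623). Of 5 tested neuronal markers 1 was called, miR-128-3p. None was called of 2 muscle, 1 liver, 3 epithelial and 2 endothelial markers. The part of cells other than HEK293T in these differences was not tested.

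The miRNAs at which the triggers were aimed did not pass the test between sets, 0 of 3, beside 11.8% called over all tested miRNAs. miR-221-3p, which represses the cell cycle inhibitor CDKN1B, read 4046, 1847 and 4806 CPM in set 1 and 4470.5, 1961 and 4914 CPM in set 2 (log2 fold change 0.09, SE 0.108, edgeR adjusted p = 0.732). miR-222-3p, from the same transcript and with the same seed, read 4001, 2547 and 4698 CPM in set 1 and 4512, 3080.0 and 5831 CPM in set 2 (log2 fold change 0.25, SE 0.109, edgeR adjusted p = 0.157). miR-218-5p, which derives from introns of SLIT2 and SLIT3, read 17427, 20033 and 11825 CPM in set 1 and 19234, 20774 and 12867 CPM in set 2 (log2 fold change 0.11, SE 0.114, edgeR adjusted p = 0.682). In both sets miR-221-3p and miR-222-3p were lowest in the BCL2L11 library and miR-218-5p in the TRIM9 library. Their passenger strands gave 0 calls of 3 as well, and groups of 3 are too small to differ from that share.

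The most abundant strands did not pass either, with 0 calls among the 10 of highest mean level. These are too few strands to tell that count from the 11.8% called over all tested miRNAs. miR-148a-3p had a log2 fold change of 0.39 (adjusted p = 0.139), with pairs at 0.06 in GFP, 0.28 in BCL2L11 and 0.83 in TRIM9, so its difference was largest in the TRIM9 pair. miR-7-5p had 0.08 (adjusted p = 0.840), with pairs at -0.34 in GFP, 0.25 in BCL2L11 and 0.33 in TRIM9. The TRIM9 library of set 2 had both the highest miR-148a-3p share and the lowest scaling factor. With miR-148a-3p and miR-7-5p left out of the totals used for scaling, 58 miRNAs were called, 17 higher and 41 lower.

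Strands were then grouped by seed, and the counts stand beside 11.8% called over all tested miRNAs (4.32% higher, 7.43% lower). In groups this small, 1 call cannot be told from that share. Of 6 tested strands with the seed AGCAGCA, miR-16-5p was called lower, and the family ran from -1.10 to 0.41 on the log2 scale with a median of -0.23. miR-15b-5p, with 111, 117 and 118 CPM in set 1 and 120.2, 109 and 101 CPM in set 2, gave -0.07. Of 4 strands with AGUGCAA, miR-454-3p and miR-130b-3p were called lower, and the family median was -0.72. Of 3 with CAGUGCA, miR-152-3p was called lower while miR-148a-3p had a positive value that missed the threshold. The 9 let-7 strands with GAGGUAG held 2 lower and 1 higher call around a median of -0.04. The 4 strands with AAAGUGC, the miR-17 family that promotes growth, were all negative, from -0.38 to -0.30, and none was called. Closest to the threshold were miR-106b-5p (adjusted p = 0.0511) and miR-20a-5p (adjusted p = 0.0520). The 4 with the miR-548 seed AAAAACU were all positive, from 0.29 to 0.58, and none was called. The 3 with ACCCGUA, of the miR-99/100 group, were positive from 0.11 to 0.76, with miR-100-5p called, but miR-99b-5p turned negative under total-count scaling (-0.15, adjusted p = 0.709) and without TRIM9 replicate 1 (-0.01, adjusted p = 0.959). Some members of a family, such as let-7 strands, differ by a few bases, so reads may have been divided between those in counting.

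Other lists gave the following counts, beside the 11.8% called over all tested miRNAs. Of 5 tested p53-induced miRNAs 1 was called lower (miR-34a-5p), with a median of -0.38. The miR-29 family had 1 lower of 3 (miR-29b-3p), the miR-30 family 1 lower of 5 (miR-30b-5p), and the group made without Drosha 1 lower of 3 (miR-320a-3p). Of 10 tested strands of miR-17-92 and its paralogous clusters, 1 was called higher (miR-363-3p), and the median was -0.24. The miR-10 and miR-99/100 group held 1 higher call of 5 (miR-100-5p), and its median was 0.18. Of 8 tested miRNAs in a list drawn up for other natural or viral triggers, 3 were called lower, namely miR-16-5p, miR-30b-5p and miR-29b-3p. The median of that list was -0.06, and whether any such trigger acts on its members in these cells was not tested. No member was called of the 2 tested for miR-125, the 2 for hypoxia-linked miR-210, the 3 linked to NF-kB, the 1 of the imprinted 14q32 cluster or the 1 that overlaps another noncoding RNA. No pluripotency miRNA of the miR-302 and miR-371 clusters had enough reads to be tested, with 6 listed.

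Strands of 1 hairpin were compared directly, since they come from the same precursor. In 90 hairpins both arms were tested, and the arms had the same sign in 43 and opposite signs in 47. Across these hairpins the fold changes of the arms correlated at r = 0.04, and at 0.01 in the 32 hairpins with both arms at 20 CPM or more. At least 1 arm was called in 19 hairpins, and both arms in 1, miR-130b, where the calls were opposite. There miR-130b-5p stood at 457, 506 and 422 CPM in set 1 and 604, 604 and 569.9 CPM in set 2 (log2 fold change 0.36, SE 0.109, edgeR adjusted p = 0.0361), while miR-130b-3p was lower. The call of miR-130b-5p was lost without GFP replicate 1 (adjusted p = 0.225) and without BCL2L11 replicate 1 (adjusted p = 0.301), and its adjusted p ran from 0.00904 to 0.831 over all alternatives. The ratio of 3p to 5p reads of miR-130b was 0.0472, 0.0427 and 0.0480 in set 1 and 0.0142, 0.0207 and 0.0134 in set 2. Because both arms share a library, this ratio does not depend on the scaling.

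Ratios of other hairpins were read the same way, and 27 of 90 had sets that did not overlap. The 3p to 5p ratio of miR-152 was 37.5, 73.2 and 59.3 in set 1 and 21.5, 17.5 and 29.2 in set 2. That of miR-361 went the other way, from 8.12, 7.06 and 9.05 to 12.8, 14.3 and 19.8. For miR-340 it was 0.132, 0.145 and 0.0940 against 0.230, 0.196 and 0.181. Each of these 3 hairpins had 1 called arm, the 3p arm, and a 5p arm that was not called. miR-140 gave ratios of 6.82, 7.58 and 5.09 against 3.81, 4.25 and 4.89, and miR-15b gave 1.58, 1.73 and 1.36 against 1.11, 1.13 and 1.25. Of the 19 hairpins with a called arm, 9 had ratios that did not overlap between sets.

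**Figure D5:**
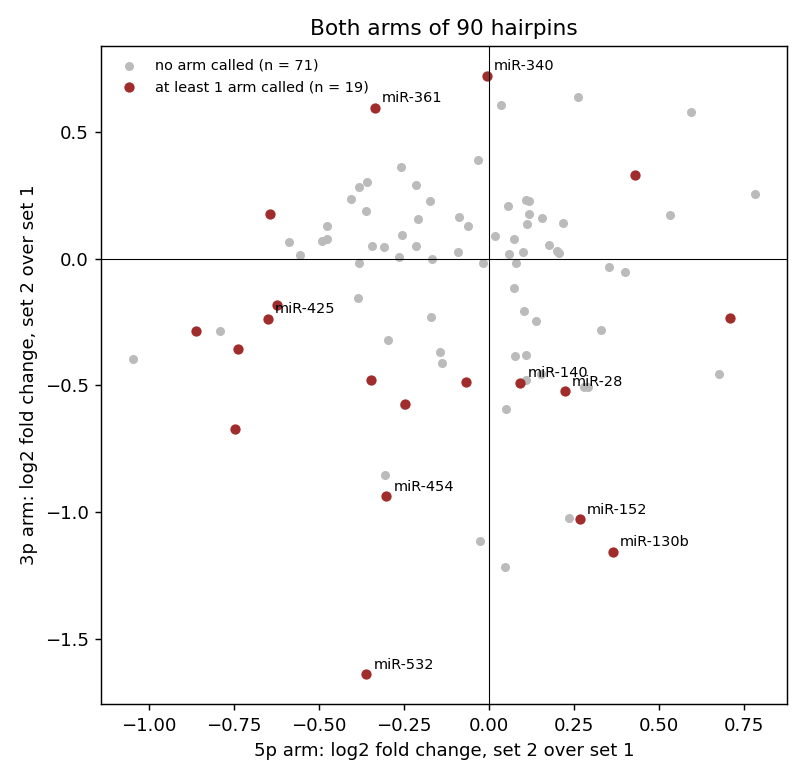
Log2 fold change of set 2 over set 1 for the 5p arm (horizontal) and 3p arm (vertical) of 90 hairpins, with the 19 that have a called arm in red. The points form no diagonal, and miR-130b lies at 0.36 and -1.15, in the quadrant of a higher 5p arm and a lower 3p arm.

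Hairpins within 10 kb of each other on 1 strand were grouped by their RefSeq positions. Here too the counts stand beside 11.8% called over all tested miRNAs (4.32% higher, 7.43% lower), and 1 call in a group cannot be told from that. At MIR15B and MIR16-2 on chromosome 3 (160404607 to 160404818), miR-16-5p (-1.10) and miR-15b-3p (-0.48) were called lower and miR-16-2-3p (0.62) higher, while miR-15b-5p stood at -0.07. So 1 locus gave calls in both directions, with the caution that miR-16-5p reads may also come from MIR16-1 on chromosome 13. At MIR301B and MIR130B on chromosome 22 there was 1 call in each direction, both from MIR130B. The run of 6 hairpins from MIR532 to MIR502 on the X chromosome (50003167 to 50014670) had 9 tested strands, of which miR-532-3p and miR-501-5p were called lower and 7 in all were negative. In the X-linked cluster of miR-450b-5p (134540231 to 134546701) the other 4 tested strands lay between -0.21 and 0.16 and none was called. MIR99B, LET7E and MIR125A on chromosome 19 gave 1 lower call of 5, let-7e-5p. MIR23A, MIR27A and MIR24-2, also on chromosome 19, gave 1 lower call of 4, miR-23a-3p (-0.65).

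The genes that host these hairpins were read in the poly-A libraries of the same plasmids and title sets, as FPKM. The labels do not say that a small RNA library and a poly-A library came from the same RNA. Between the poly-A sets 4991 of 15183 genes were called by limma (32.9%), 3421 higher (22.5%) and 1570 lower (10.3%), and the share of called hosts, 12 of 36, was close to that. Of the called hosts 9 were higher and 3 lower. Rescaling the FPKM by TMM moved the median of all genes from 0.06 to -0.32 and gave 5 higher and 9 lower hosts. The list of hosts does not name every strand of each hairpin, so called strands and hosts are described here one by one and not tallied.

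Among the called hosts, 4 are described with the called strands they hold. SMC4, a condensin subunit whose introns hold miR-15b and miR-16-2, stood at 42.2, 29.8 and 30.3 FPKM in set 1 and 87.6, 83.8 and 79.0 FPKM in set 2 (log2 difference 1.28, SE 0.148, limma adjusted p = 0.0111). All set 2 values were above set 1. Of the strands from these introns, miR-16-2-3p was higher like its host, while miR-15b-3p was lower, as was miR-16-5p, which MIR16-1 also encodes. RNF130, a ubiquitin ligase gene, stood at 30.3, 25.6 and 23.8 FPKM in set 1 and 20.04, 14.1 and 18.2 FPKM in set 2 (log2 difference -0.59, SE 0.148, limma adjusted p = 0.0323), while miR-340-3p was higher. CLCN5, a chloride transporter gene, stood at 1.28, 1.36 and 1.11 FPKM in set 1 and 2.21, 2.39 and 2.56 FPKM in set 2 (log2 difference 0.59, SE 0.145, limma adjusted p = 0.0299), while miR-532-3p and miR-501-5p were lower. LPP, a focal adhesion gene that holds miR-28, stood at 0.616, 0.344 and 0.492 FPKM in set 1 and 1.57, 0.961 and 1.11 FPKM in set 2 (log2 difference 0.57, SE 0.145, limma adjusted p = 0.0330), while miR-28-3p was lower. SMC4 kept its call whichever library was left out. The calls of the other 3 were lost without either BCL2L11 library or either TRIM9 library, with adjusted p without BCL2L11 replicate 1 of 0.315 for RNF130, 0.149 for CLCN5 and 0.177 for LPP. With the TMM rescaling the calls of CLCN5 and LPP were lost, at 0.29, adjusted p = 0.176 and 0.37, adjusted p = 0.103. Among the hosts given here with an SE, 2 that were not called in the main fit gained a call with that rescaling, with their sign kept. The hosts of miR-26b-5p, CTDSP1 (log2 difference -0.43, SE 0.208, limma adjusted p = 0.162), and of miR-425-5p, DALRD3 (log2 difference -0.28, SE 0.189, limma adjusted p = 0.294), were not called in the main fit. Both had the sign of their strand. Other hosts not called had the opposite sign, namely MIR503HG (-0.15) for miR-450b-5p, MIR99AHG (0.34) for let-7c-5p and EIF4H (0.16) for miR-590-3p. Near 0 were SKA2 (0.01) for miR-454-3p, COPZ2 (-0.03) for miR-152-3p and WWP2 (0.0004) for miR-140-3p. The signs of such small host differences depend on the scaling, since the TMM rescaling moved the median of the hosts from 0.25 to -0.17. SLIT2, a host of the triggered miR-218-5p, was called higher (log2 difference 1.08, SE 0.130, limma adjusted p = 0.0111), while miR-218-5p was not called. It stood at 8.70, 9.30 and 11.5 FPKM in set 1 and 20.6, 21.1 and 23.9 FPKM in set 2. SLIT3 was too low to be tested. The calls of a host are on a log2(FPKM + 1) scale, which understates the change of low genes such as LPP.

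Called strands were also compared by base makeup. Among the 374 tested miRNAs with a sequence the median purine share was the same as in the 27 called lower, and it was 38.1% in the 15 called higher. The median share of G was 26.1% over all, 27.3% in the lower and 19.0% in the higher strands, and the median share of U was 28.6%, 28.6% and 39.1%. Median length was 22 nt in each group, and the median GC content was 47.8%, 47.8% and 45.5%. Over all 374 strands the purine share correlated with the log2 fold change at r = -0.12, and over the 196 with at least 20 CPM at r = -0.23. For the share of U the values were 0.15 and 0.08. For purines in that subset the pairs gave -0.20 in GFP, -0.19 in BCL2L11 and -0.20 in TRIM9. Strands share libraries and families, so these values describe the table and are weak.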

How the data were processed

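The 6 small RNA libraries were compared by title set. The authors deposited 1 table of whole read counts per miRNA, unscaled, and a table of gene FPKM for the 6 poly-A libraries. The build hg38 and the tools DESeq2 1.20.0, StringTie 2.1.3, STAR and cutadapt 3.4 are named, without their roles, in the submitters' processing notes. How reads shared by similar miRNAs were counted is not given in the sources used here. Of the authors' files, the deposited trigger comparisons were not used here.

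Counts were fitted with edgeR 4.0.16 (R 4.3.3): TMM factors, filterByExpr by set, quasi-likelihood test with terms for plasmid and set over all 6 libraries, and Benjamini-Hochberg adjustment over 417 miRNAs at a threshold of 0.05. The SE is the log2 fold change divided by the root of F. Hosts were tested with limma 3.58.1 on log2(FPKM + 1) for genes at 1 FPKM or more in at least 2 libraries, with the same terms and adjustment over 15183 genes. Both fits were also run on simulated data, and the outcome is not given here. Alternatives were other scalings, other filters, DESeq2 1.42.0, limma voom, no plasmid term, other pseudocounts and each library or pair left out. With the plasmid term, a library whose partner is left out carries no information on the set.

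Depth was 5018875 to 6091151 reads, so a strand at 1 CPM rests on about 5 reads, and SEs cover only the spread between these samples, which may be technical. Named miRNAs were up to 15 per direction of lowest p, the 5 of largest fold, the 10 of highest mean, the triggered miRNAs and their passengers, up to 4 per list of 26 lists, and hosts of those. Seed, arm and cluster neighbours and the strands low in BCL2L11 replicate 1 were added after their values were seen. The members and lists were chosen with earlier results of these data known. RefSeq mature sequences (GRCh38.p14) were matched by name.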

Additional observations from a re-analysis of the deposited data

How the results depend on the processing

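Of 49 called miRNAs, all kept their sign in those of 17 alternatives that tested them, and 6 kept their call under each. Leaving out 1 library at a time gave 13 to 51 called miRNAs (5 to 22 higher, 7 to 33 lower) against 49 (18 higher, 31 lower), and 4 to 19 called hosts against 12. The lowest number of called miRNAs, 13, came without GFP replicate 1. Without GFP replicate 2 it was 51, and without both GFP libraries 50. All 3 fits draw the set difference from the BCL2L11 and TRIM9 pairs, and why their numbers differ was not tested. Without both BCL2L11 libraries 17 were called, 5 higher and 12 lower, with fewer samples in the fit. The number called higher was 3 with total-count scaling and 9 without the plasmid term. Of the values that missed the threshold, total-count scaling turned miR-221-3p to -0.17, miR-222-3p to -0.0091, miR-218-5p to -0.16, miR-99b-5p to -0.15 and miR-7-5p to -0.18. Leaving out 1 library put miR-15b-5p between -0.16 and 0.013, miR-7-5p between -0.047 and 0.29, miR-99b-5p between -0.012 and 0.19 and miR-122-5p between -0.54 and 0.025. Without both TRIM9 libraries miR-15b-5p was 0.0078, miR-122-5p 0.018, miR-99b-5p -0.012 and miR-7-5p -0.047, and without both BCL2L11 libraries miR-7-5p was -0.0067. The plasmid term already matches the libraries of a plasmid, and the title numbers are not shared between sets, so they give no further block.

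The 417 tested miRNAs hold 99.97% to 99.98% of reads, and the filter left the other 736 out of the test. With no filter all 1153 were tested and 57 were called. With 2 residual degrees of freedom the fit borrows its spread from all miRNAs. Total and TMM scaling differ by a median of -0.26, so small higher values depend on which is used. DESeq2 gave no adjusted p for 49 of the 417 miRNAs.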

Other observations

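Reads of some miRNAs of low level were unevenly spread over the libraries. The liver miRNA miR-122-5p had 92 reads in TRIM9 replicate 1, the library with most miR-150-5p reads, and 21 to 40 in the other 5, and it did not pass the test between sets. miR-127-3p, from the imprinted 14q32 cluster, had 23 reads there and 0 to 8 elsewhere. miR-451a and miR-486-5p were lowest in BCL2L11 replicate 1 and next lowest in TRIM9 replicate 1. Whether their reads share a source with those above was not tested.

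Some hairpins shifted between arms without a call on either arm. The 3p to 5p ratio of miR-576 was 4.20, 4.16 and 4.22 in the GFP, BCL2L11 and TRIM9 libraries of set 1 and 6.57, 6.14 and 5.68 in set 2. That of miR-106b was 4.53, 4.75 and 3.46 in set 1 and 6.00, 6.39 and 7.69 in set 2. The sets did not overlap for either hairpin, beside 27 of 90 hairpins in all, and both were picked out after their values were seen.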
